A study of Arabidopsis thaliana with 6 samples.

Results

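The tetrapyrrole pathway is the chloroplast route that makes chlorophyll and heme. It was followed here through 30 genes, taken by locus from a curated list of its enzymes and regulators, among the 21430 genes that had a value on the arrays. All 30 were on the arrays, with 12 in the common steps, 3 in the heme branch and 15 in the chlorophyll branch. The samples were wild-type Arabidopsis thaliana Columbia-0 seedlings raised in liquid medium with sucrose for 7 days under 16 h of light and 8 h of dark, and all groups shared this accession, age and medium. The treated group was then kept in 10 mM hydrogen peroxide (H2O2), an oxidant, for 24 h, and the mock group spent 24 h with an equal volume of water. Each group had 3 replicates, and each replicate was a pool of 4 to 5 plants on its own Affymetrix array.

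In plants, tetrapyrroles are built from glutamate. Glutamyl-tRNA is reduced and rearranged to 5-aminolevulinic acid (ALA), whose formation limits flow through the pathway, and ALA units are condensed and oxidised in steps to protoporphyrin IX. There the route divides. Ferrochelatase inserts iron to give heme, which serves cytochromes, catalases and peroxidases and is opened by heme oxygenase to make the phytochrome chromophore. Magnesium chelatase inserts magnesium to start the chlorophyll branch. Free intermediates of the pathway are photosensitisers that produce singlet oxygen in the light, and for this reason synthesis is held under tight control.

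Values are the authors' log2 GCRMA values, so a difference of 1 is a 2-fold change. Array medians lay between 5.66 and 5.74, and arrays correlated across probe sets at 0.995 to 0.997 (Pearson) inside a group and at 0.951 to 0.958 across groups. The labels name both leaf and seedling as the material. Of the 5 leaf mesophyll markers listed, 3 had values, and RCA lay at 12.45 to 12.62 in H2O2 and 12.73 to 12.86 in mock. The root marker PYK10 was also high, at 11.85 to 12.05 in H2O2 and 11.98 to 12.07 in mock. RCA and PYK10 were the highest markers of their lists. In mock, the other leaf markers averaged 10.31 (CA1) and 10.95 (SBPASE), and the other root markers from 3.02 (THAS1) to 8.86 (XTH14). Whether the pools came from separate cultures is not stated. The p-values therefore cover the spread between pools alone, which may be technical, and precision is limited by having 3 arrays a group. In bulk RNA, fewer cells of a type and less RNA per cell cannot be told apart.

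H2O2 was set against mock to find the transcripts that differed after a day with the oxidant. Most of the pathway was lower in H2O2. Of the 30 genes, 26 were lower, 2 were higher and 2 did not pass at an adjusted p under 0.05 in limma. This fit did not pair the replicates by number. Among all 15001 probe sets tested, 36.5% were lower and 23.9% were higher, 60.4% in all. The median log2 difference was -0.53 over the 30 genes and -0.10 over all probe sets tested. The 2 genes that rose were HEMA2 and FC1, which make the first reaction of the pathway and the iron insertion of the heme branch.

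The decreases were moderate. No member was lower by 2-fold or more, a size reached by 4.14% of all probe sets, and 16 were lower by at least 0.5 on the log2 scale, which 18.2% of all probe sets were. For the 26 genes that fell, the H2O2 level was 55.3% to 84.6% of the mock level on the linear scale. The 3 H2O2 arrays lay below all 3 mock arrays for these 26 genes and above them for the 2 that rose, whereas 40.7% of all probe sets were separated downward and 26.6% upward.

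**Figure D1:**
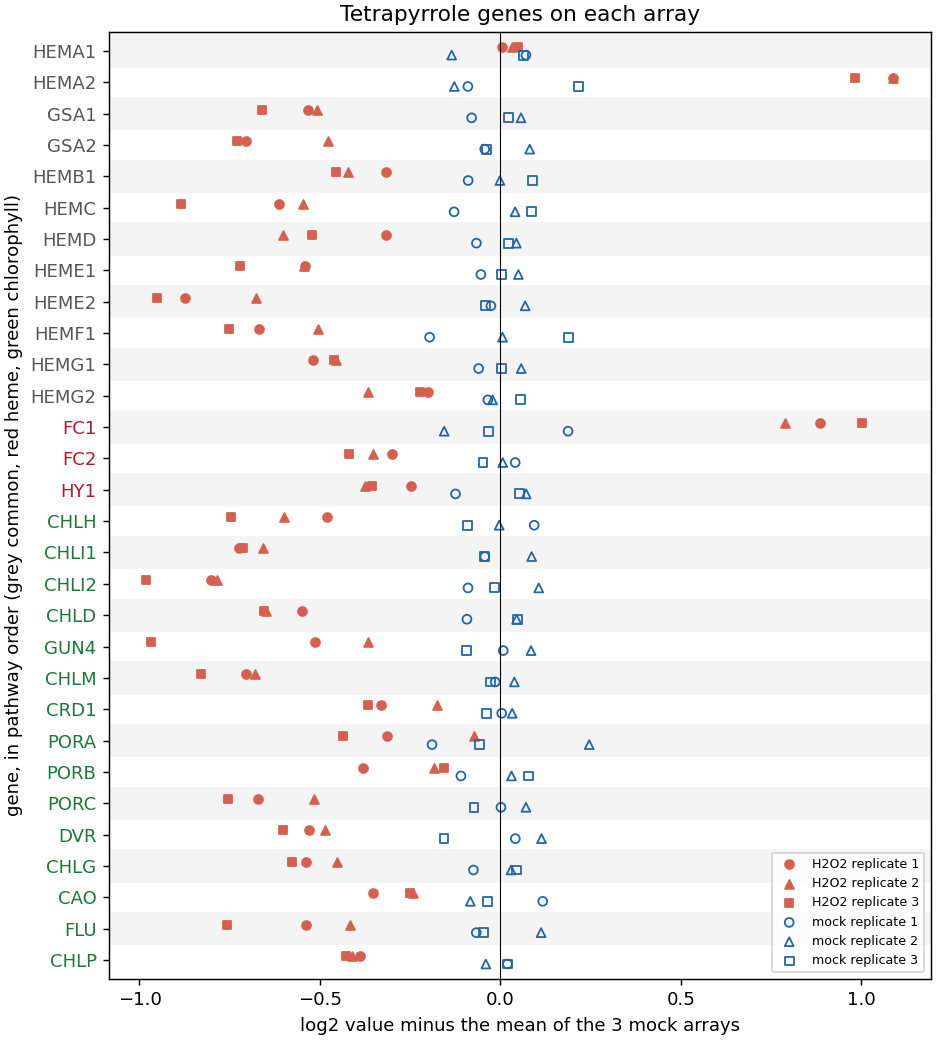
Each row is a gene in pathway order and each point an array, placed at its log2 value minus the mean of the 3 mock arrays (filled red for H2O2, open blue for mock, with a marker shape for each replicate number). The H2O2 points lie left of the mock points for 26 genes, lie right of them for HEMA2 and FC1, and overlap them for HEMA1 and PORA.

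The first enzyme, glutamyl-tRNA reductase, has a pair of genes among the members, of which HEMA2 alone was called changed. A further copy, HEMA3 (AT2G31250), is not a member and was left untested by the filter on low values. HEMA2 (AT1G09940), the copy known from earlier work to be expressed in roots and other tissues that do not photosynthesise, had 7.09, 7.09 and 6.99 in H2O2, against 5.91, 5.88 and 6.22 in mock. All H2O2 arrays were above all mock arrays, and HEMA2 rose 2.08-fold (log2 difference 1.05, SE 0.10, limma adjusted p = 5.68e-05). It was the only member to rise at least 2-fold, which 7.63% of all probe sets did, and its difference exceeded that of 92.9% of probe sets tested. HEMA1 (AT1G58290), the copy that serves chlorophyll synthesis in green tissue, had 8.67, 8.70 and 8.72 in H2O2, against 8.74, 8.53 and 8.73 in mock. These ranges overlap, and the difference was 0.03 with a 95% interval of -0.16 to 0.22 (limma adjusted p = 0.777). HEMA1 was therefore the one gene of the common steps whose level was not called changed.

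Glutamate-1-semialdehyde aminomutase, which forms ALA, was lower in both copies. GSA2 (AT3G48730) had 9.24, 9.47 and 9.21 in H2O2, against 9.90, 10.02 and 9.90 in mock. GSA1 (AT5G63570) had 8.63, 8.66 and 8.50 in H2O2, against 9.08, 9.22 and 9.18 in mock. Neither pair of ranges overlaps, and GSA2 fell by 0.64 (SE 0.09) and GSA1 by 0.57 (SE 0.08), with limma adjusted p of 0.000468 and 0.000414.

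The enzymes that assemble the ring were lower too. HEMB1 (AT1G69740), ALA dehydratase, averaged 9.96 ± 0.07 in H2O2 and 10.36 ± 0.09 in mock (SD, n = 3 each), a decrease of 1.32-fold. HEMC (AT5G08280), porphobilinogen deaminase, which links the rings into a chain, had 10.24, 10.31 and 9.97 in H2O2, against 10.73, 10.90 and 10.94 in mock. HEMC fell by 0.68 (SE 0.11, limma adjusted p = 0.000774), with its lowest value in H2O2 replicate 3. HEMD (AT2G26540), which closes the chain to uroporphyrinogen III, averaged 6.51 ± 0.15 in H2O2 and 6.99 ± 0.06 in mock (SD, n = 3 each) and fell by 0.48.

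Uroporphyrinogen decarboxylase, which trims the side chains, held the largest decrease of the common steps. HEME2 (AT2G40490) had 9.19, 9.39 and 9.11 in H2O2, against 10.04, 10.13 and 10.02 in mock. The gap between the groups was wider than the range within either group, and HEME2 fell by 0.83 (SE 0.09, limma adjusted p = 9.73e-05). HEME1 (AT3G14930) had 8.56, 8.56 and 8.38 in H2O2, against 9.05, 9.15 and 9.11 in mock, and fell by 0.60 (SE 0.08).

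The last common steps are oxidations. HEMF1 (AT1G03475), coproporphyrinogen oxidase, had 8.08, 8.25 and 8.00 in H2O2, against 8.56, 8.76 and 8.94 in mock, and was 1.56-fold lower (limma adjusted p = 0.00145). HEMG1 (AT4G01690), the protoporphyrinogen oxidase of the chloroplast, had 9.61, 9.67 and 9.67 in H2O2, against 10.07, 10.19 and 10.13 in mock, and fell by 0.48 (SE 0.07). HEMG2 (AT5G14220), the other oxidase gene, had 7.87, 7.71 and 7.85 in H2O2, against 8.04, 8.05 and 8.13 in mock. The HEMG2 ranges came close without overlapping. Its decrease of 0.26 (limma adjusted p = 0.0183) was not called with the arrays centred on reference genes (adjusted p = 0.123), without H2O2 replicate 2 (-0.21, adjusted p = 0.0535) or without mock replicate 3 (-0.235, adjusted p = 0.0633).

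In the heme branch, the ferrochelatase genes moved in opposite directions. FC1 (AT5G26030), known from earlier Arabidopsis work to be expressed in all organs, roots included, and to respond to wounding and oxidants, had 8.77, 8.67 and 8.88 in H2O2, against 8.07, 7.73 and 7.85 in mock. All H2O2 arrays were above all mock arrays, and FC1 rose 1.86-fold (log2 difference 0.89, SE 0.11, limma adjusted p = 0.000158). FC2 (AT2G30390), the copy expressed with photosynthesis genes, had 7.85, 7.80 and 7.73 in H2O2, against 8.19, 8.16 and 8.10 in mock. Its arrays separated the other way, with a decrease of 0.36 (SE 0.07, limma adjusted p = 0.00303). HY1 (AT2G26670), the main heme oxygenase, averaged 9.26 ± 0.07 in H2O2 and 9.58 ± 0.11 in mock (SD, n = 3 each). It fell by 0.33 (limma adjusted p = 0.00962), a call lost with reference gene centring (adjusted p = 0.0614).

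Magnesium chelatase, the entry to the chlorophyll branch, was lower in the genes of all its subunits and in that of its activator GUN4, by 0.61 to 0.86. CHLI2 (AT5G45930), a minor copy of the ATPase subunit, had 7.81, 7.83 and 7.63 in H2O2, against 8.52, 8.72 and 8.60 in mock. It fell 1.81-fold (log2 difference -0.86, SE 0.09, limma adjusted p = 7.54e-05), the largest decrease of any member, and 5.96% of probe sets tested had a lower difference. CHLI1 (AT4G18480), the main ATPase subunit, had 10.07, 10.13 and 10.08 in H2O2, against 10.75, 10.88 and 10.75 in mock, and was 1.62-fold lower (limma adjusted p = 8.71e-05). Both CHLI genes thus had gaps between the groups far wider than the spread within them.

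CHLH (AT5G13630), the subunit that binds the porphyrin, had 11.04, 10.92 and 10.77 in H2O2, against 11.61, 11.51 and 11.43 in mock. CHLD (AT1G08520), the subunit that joins the CHLI ring to CHLH, averaged 8.79 ± 0.06 in H2O2 and 9.41 ± 0.08 in mock (SD, n = 3 each). GUN4 (AT3G59400), which binds porphyrins and stimulates the chelatase, had 9.10, 9.25 and 8.64 in H2O2, against 9.62, 9.70 and 9.52 in mock. Its H2O2 arrays had the largest spread of any member (SD 0.31), with replicate 3 the lowest. GUN4 fell by 0.62 (limma adjusted p = 0.00662), which did not pass without variance moderation (adjusted p = 0.057).

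The steps from magnesium protoporphyrin to protochlorophyllide differed in size. CHLM (AT4G25080), the methyltransferase, had 10.26, 10.29 and 10.14 in H2O2, against 10.95, 11.01 and 10.94 in mock, and fell by 0.74 (SE 0.08, limma adjusted p = 6.76e-05). CRD1 (AT3G56940), a subunit of the cyclase that closes the fifth ring, averaged 11.49 ± 0.10 in H2O2 and 11.78 ± 0.04 in mock (SD, n = 3 each), a decrease of 0.29 (limma adjusted p = 0.0125). The CRD1 call was lost with quantile normalization (-0.15, adjusted p = 0.109) and with reference gene centring (-0.21, adjusted p = 0.0528). DVR (AT5G18660), which reduces a vinyl side chain, averaged 7.58 ± 0.06 in H2O2 and 8.12 ± 0.14 in mock (SD, n = 3 each) and fell by 0.54.

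Protochlorophyllide oxidoreductase, the enzyme that needs light to act, has 3 genes. PORC (AT1G03630), the copy induced by light in green tissue, had 8.59, 8.75 and 8.51 in H2O2, against 9.27, 9.34 and 9.19 in mock, and was 1.57-fold lower (limma adjusted p = 0.000332). PORB (AT4G27440), expressed in the dark and the light, had 10.10, 10.29 and 10.32 in H2O2, against 10.37, 10.51 and 10.55 in mock. PORA (AT5G54190), known as the copy of dark-grown seedlings, had 5.73, 5.96 and 5.60 in H2O2, against 5.85, 6.28 and 5.98 in mock. PORC separated clearly, PORB by 0.047 only, and the PORA ranges overlapped.

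The PORB decrease of 0.24 was at the threshold (limma adjusted p = 0.0483). It was not called without the filter on low values, with quantile normalization, with reference gene centring or without variance moderation (adjusted p = 0.0626 to 0.172), nor without H2O2 replicate 1 (-0.17, adjusted p = 0.158), H2O2 replicate 2 (-0.27, adjusted p = 0.0615), mock replicate 2 (-0.23, adjusted p = 0.123) or mock replicate 3 (-0.20, adjusted p = 0.142). For PORA the difference was -0.27 with a 95% interval of -0.58 to 0.03 (limma adjusted p = 0.108). It passed in a fit blocked on replicate number (adjusted p = 0.0248) and without H2O2 replicate 2 (-0.37, adjusted p = 0.0489). The value was smaller without mock replicate 2 (-0.15, adjusted p = 0.34) and without H2O2 replicate 3 (-0.19, adjusted p = 0.287).

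The genes that finish chlorophyll and hold back the pathway were also lower. CHLG (AT3G51820), chlorophyll synthase, which attaches the phytyl tail, averaged 9.15 ± 0.06 in H2O2 and 9.67 ± 0.06 in mock (SD, n = 3 each). CHLP (AT1G74470), the geranylgeranyl reductase that makes the tail, averaged 11.31 ± 0.02 in H2O2 and 11.72 ± 0.03 in mock (SD, n = 3 each). They fell by 0.52 and 0.41, each many times the spread within its groups, although CHLP fell by only 0.256 with quantile normalization (limma adjusted p = 0.0134). CAO (AT1G44446), which makes chlorophyll b, averaged 7.92 ± 0.06 in H2O2 and 8.20 ± 0.10 in mock (SD, n = 3 each). Its decrease of 0.28 (limma adjusted p = 0.0173) did not pass with reference gene centring (adjusted p = 0.0611), without H2O2 replicate 1 (-0.25, adjusted p = 0.0611) or without mock replicate 1 (-0.22, adjusted p = 0.0631). FLU (AT3G14110), the negative regulator that restrains ALA synthesis in the dark, averaged 8.71 ± 0.17 in H2O2 and 9.28 ± 0.10 in mock (SD, n = 3 each) and fell by 0.57 (limma adjusted p = 0.00167).

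**Figure D2:**
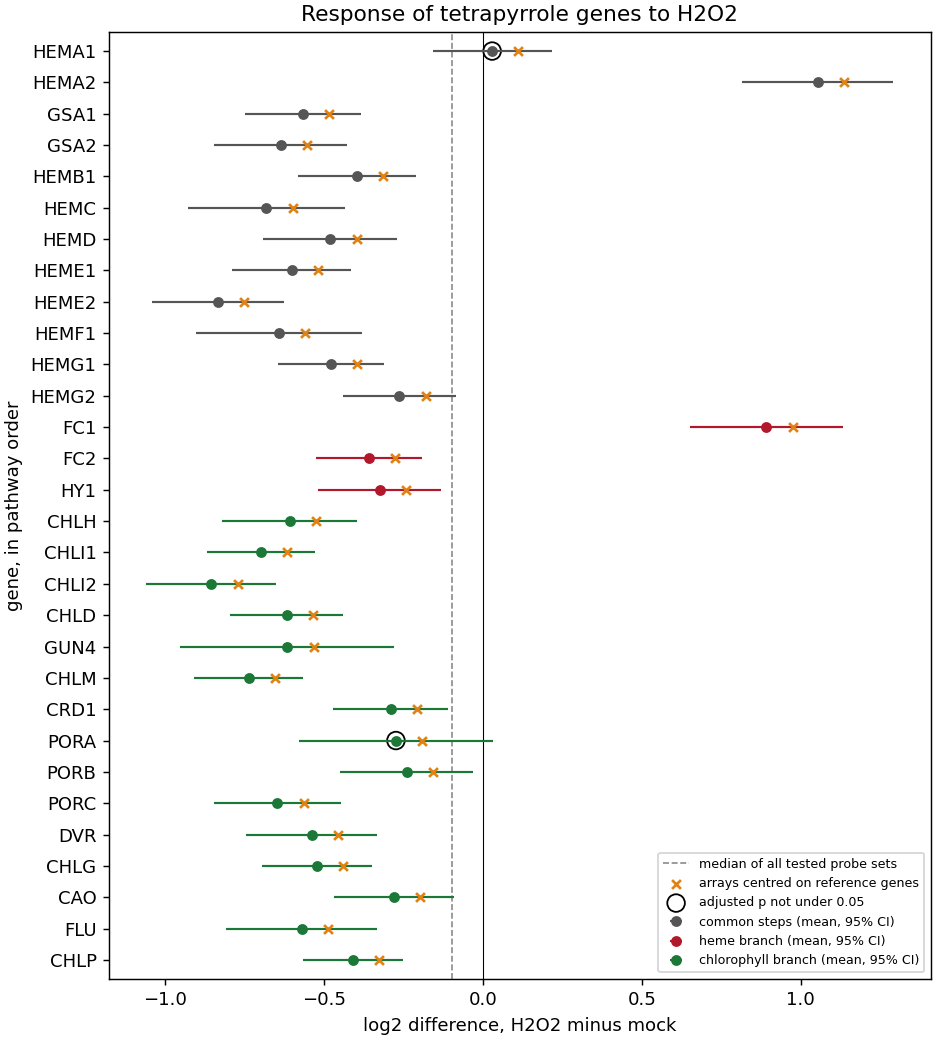
Points give the log2 difference (H2O2 minus mock) of each gene in pathway order with its 95% interval from limma, coloured by branch. Crosses give the same difference after centring the arrays on 8 reference genes, black rings mark HEMA1 and PORA, which did not pass, and the dashed line is the median of all probe sets tested (-0.10). All 15 chlorophyll branch genes lie left of 0, and only HEMA1, HEMA2 and FC1 lie right of it.

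By branch, 10 of 12 genes of the common steps fell and HEMA2 rose, while HEMA1 did not pass, and the median difference was -0.52. In the chlorophyll branch 14 of 15 fell and 1 did not pass, with a median of -0.57. The heme branch had 2 that fell and 1 that rose, with a median of -0.33. Among all probe sets tested, 36.5% were lower and 23.9% higher. Differences between branches were not tested. Centring on reference genes raised the median difference over all probe sets by 0.08. In that fit 21 of the 30 genes were called lower, and HEMA2 and FC1 remained higher. Of all 15001 probe sets, 4329 were lower and 4179 higher in the same fit. The reference genes were not all stable in the main fit. Of the 8, PP2AA3 (-0.22) and RHIP1 (-0.37) were called lower and none was called higher. The part of these reference genes in the calls lost with centring was not tested.

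Duplicated genes were compared by the log2 difference of the copies within each array, which shows unequal change and not which copy is more abundant. In all, 9 pairs were compared with a two-sided exact permutation test over the arrays, for which 3 arrays against 3 cannot give a p under 0.1, and the smallest value after adjustment over the 9 pairs is 0.129. No pair could therefore pass. The groups did not overlap in 7 of the 9 pairs, and each of these had the smallest p. Separation was common in these data, at 40.7% of all single probe sets tested downward and 26.6% upward. The share among other gene pairs was not computed, and the POR pairs share their genes.

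The ferrochelatases had the largest difference of the 9 pairs. FC1 minus FC2 was 0.92, 0.87 and 1.15 in H2O2, against -0.12, -0.43 and -0.25 in mock, a difference of 1.25 between the groups (exact permutation p = 0.1, adjusted p = 0.129, n = 3 each). The groups were far apart. HEMA1 minus HEMA2 was 1.58, 1.61 and 1.73 in H2O2, against 2.82, 2.66 and 2.51 in mock, a difference of -1.02. For both pairs this was several times the largest SD within a group, which was 0.16.

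The other pairs had smaller values. The difference between H2O2 and mock was 0.41 for PORB minus PORC and 0.37 for PORA minus PORC. It was 0.23 for HEME1 minus HEME2, 0.16 for CHLI1 minus CHLI2 and -0.22 for HEMG1 minus HEMG2. Without H2O2 replicate 3 the CHLI value was 0.101. Overlapping groups were found for GSA1 minus GSA2, with a difference of 0.07 (exact permutation p = 0.3, adjusted p = 0.338, n = 3 each), and for PORA minus PORB, with a difference of -0.03 (exact permutation p = 1, n = 3 each). The GSA value was 0.0198 without H2O2 replicate 1 and 0.122 without H2O2 replicate 2.

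**Figure D3:**
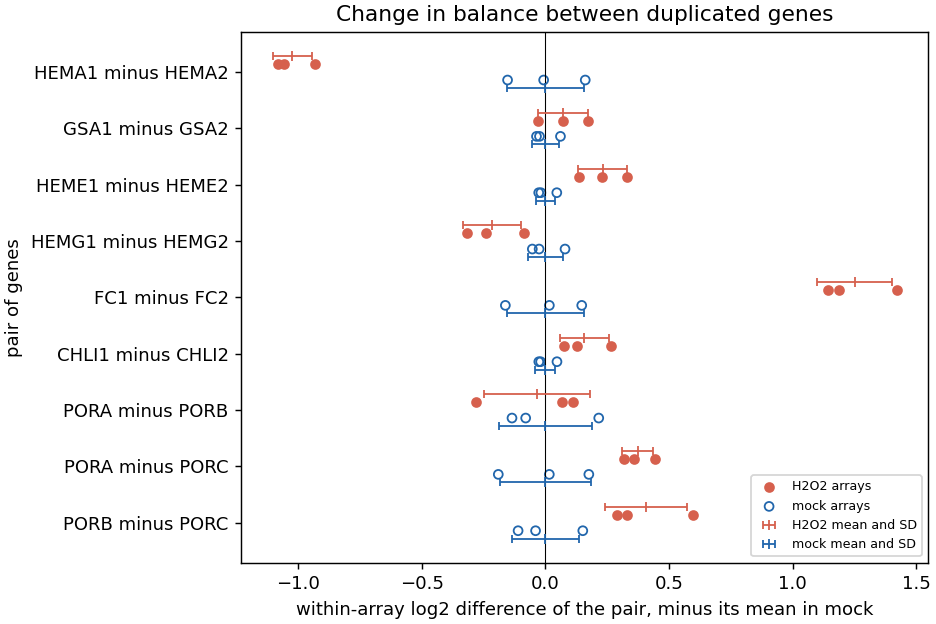
For each pair of duplicated genes, points give the log2 difference of the copies on each array, minus the mean of that difference in mock (filled red for H2O2, open blue for mock), with bars for the mean and SD. The H2O2 arrays lie farthest from mock for FC1 minus FC2 (1.25 higher) and HEMA1 minus HEMA2 (1.02 lower), and overlap mock for GSA1 minus GSA2 and PORA minus PORB.

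Replicates varied little. The SD within a group was 0.02 to 0.31 over the 30 genes. Of the H2O2 arrays, replicate 3 held the lowest value for 21 of the 30 genes, with a median deviation of -0.07 from the group mean. Without that array 26 genes were still lower and 2 higher. Of the mock arrays, replicate 1 held the lowest value for 16 genes.

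Beyond the 30 genes, a list of 17 other tetrapyrrole genes was followed, of which 13 passed the filter on low values. Of these, 9 fell and 1 rose, while 3 did not pass, against 36.5% lower and 23.9% higher among all probe sets tested. Their median was -0.49. LIL3:1 (AT4G17600), a membrane protein that anchors geranylgeranyl reductase, had 8.91, 9.33 and 9.13 in H2O2, against 10.01, 10.11 and 9.88 in mock, and fell by 0.88 (limma adjusted p = 0.0003). LIL3:2 (AT5G47110), its homolog, fell by 0.55. EMB3143 (AT5G58250), another cyclase subunit, fell by 0.83, and ERS (AT5G64050), the glutamyl-tRNA synthetase that supplies the first substrate, fell by 0.61. The gene that rose was TSPO (AT2G47770), a stress-induced membrane protein that binds porphyrins and heme. TSPO had 5.84, 5.48 and 5.72 in H2O2, against 3.98, 3.94 and 3.85 in mock, and was 3.37-fold higher (limma adjusted p = 2.64e-06). Its mock level was close to the filter limit of 3.79.

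Some genes of that list belong to side branches. SIRB (AT1G50170), which inserts iron into siroheme, fell by 0.50, while UPM1 (AT5G40850), the methyltransferase that opens that branch, differed by 0.13 and did not pass (limma adjusted p = 0.314). HY2 (AT3G09150), which makes phytochromobilin after HY1, fell by 0.28. HO3 (AT1G69720), a minor heme oxygenase, had 2.84, 3.07 and 2.71 in H2O2, against 4.00, 4.03 and 4.24 in mock, and was left untested by the filter together with HO4, HEMA3 and HEMB2. By the order of genes in the RefSeq table, HEMA1 lies next to HO4, HEMD next to HO2 (AT2G26550), and HEMB1 1 gene away from HO3, with no overlap between any of them. The neighbours HEMD and HO2 had differences of -0.48 and -0.55.

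The genes that supply the phytyl tail were lower, with 7 of 9 falling, none rising and a median of -0.46. Among all probe sets tested, 36.5% were lower and 23.9% higher. HDS (AT5G60600) fell by 0.58, DXR (AT5G62790) by 0.48, ISPD (AT2G02500) by 0.46 and ISPF (AT1G63970) by 0.46, all enzymes of the plastid isoprenoid route, and GGPS1 (AT4G36810), which makes the geranylgeranyl precursor, fell by 0.52. DXS (AT4G15560), the first enzyme of that route, differed by -0.16 and HDR (AT4G34350), the last, by -0.12, and neither passed (limma adjusted p = 0.107 and 0.182).

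Among 13 antenna genes, whose proteins bind the chlorophyll, 10 fell and 3 did not pass. Over all probe sets tested, 36.5% were lower and 23.9% higher. The antenna median of -0.35 lay between the lower and upper quartiles of all tested differences (-0.39 and 0.24). LHCA6 (AT1G19150), an antenna protein that links photosystem I to the NDH complex, was 2.09-fold lower, and LHCB6 (AT1G15820) and LHCB4.2 (AT3G08940) fell by 0.59 and 0.57. LHCA5 (AT1G45474), the partner of LHCA6 in that link, fell by 0.55, and LHCB4.1 (AT5G01530) by 0.43. The remaining 8 antenna genes of the list had no value on the arrays, so these counts cover only part of the family.

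Chlorophyll breakdown genes went both ways. Of 12 genes, 5 rose and 5 fell, while 2 did not pass, against 23.9% higher and 36.5% lower among all probe sets. Their median was -0.06. SGR1 (AT4G22920), which removes magnesium from chlorophyll a, had 7.61, 7.48 and 7.39 in H2O2, against 6.70, 6.48 and 6.57 in mock, and rose 1.88-fold (limma adjusted p = 6.02e-05). MES16 (AT4G16690), a demethylase of breakdown products, rose by 0.84, and the chlorophyllase genes CLH1 (AT1G19670) and CLH2 (AT5G43860) rose by 0.76 and 0.72. PPH (AT5G13800) rose by 0.71. HCAR (AT1G04620), which returns chlorophyll b to chlorophyll a, fell by 0.77. SGRL (AT1G44000) fell by 0.48, NOL (AT5G04900) by 0.46, NYC1 (AT4G13250) by 0.26 and PAO (AT3G44880) by 0.19. The difference between this list and the synthesis genes was not tested.

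Of 15 regulators known to act on tetrapyrrole or chloroplast genes, 6 fell and 1 rose, while 8 did not pass. Their median was -0.37, and the share that fell is near the 36.5% of all probe sets that were lower. GNC (AT5G56860), a GATA factor that promotes greening, had 5.18, 5.45 and 5.34 in H2O2, against 6.37, 6.32 and 6.05 in mock, and fell by 0.92 (limma adjusted p = 0.000174). The plastid sigma factor genes SIG2 (AT1G08540) and SIG6 (AT2G36990) fell by 0.85 and 0.82. SIG2 is known to direct transcription of the plastid glutamyl-tRNA, the starting material of the pathway. The light-signalling factor gene PIF4 (AT2G43010) fell by 0.78. HYH (AT3G17609), a bZIP factor of light signalling, rose by 0.97 (SE 0.16, limma adjusted p = 0.00106), while its relative HY5 (AT5G11260) differed by 0.23 and did not pass (limma adjusted p = 0.212).

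**Figure D4:**
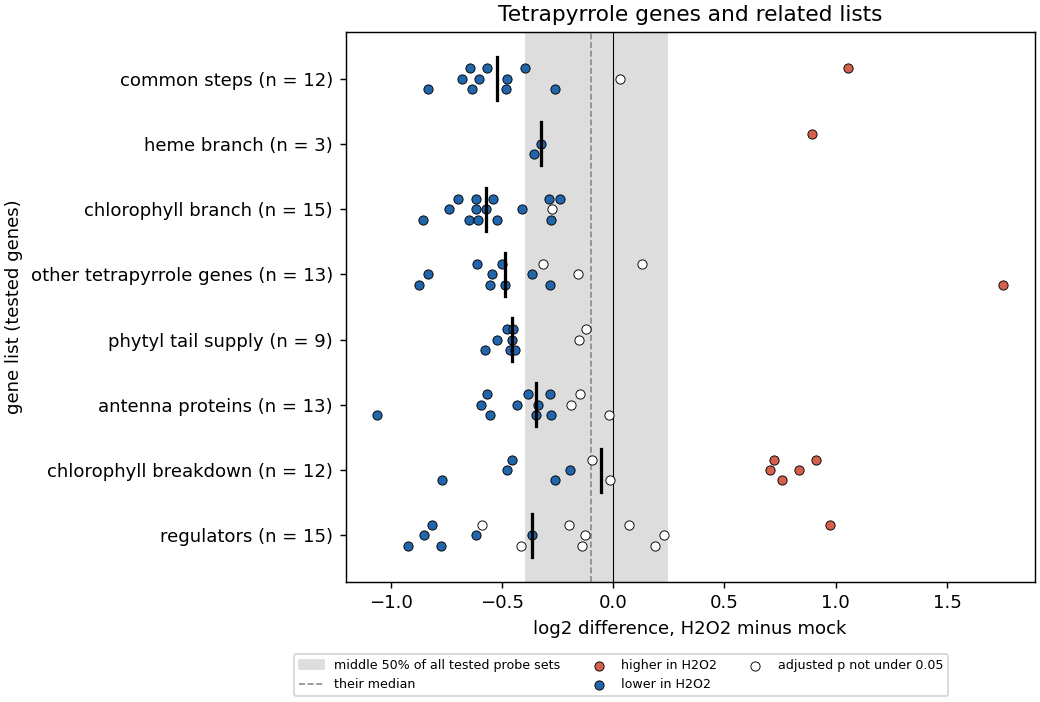
Each point is a tested gene at its log2 difference (H2O2 minus mock), in rows by list, blue for lower, red for higher and white where the adjusted p was not under 0.05, with a black bar at each list's median. The grey band holds the middle 50% of all probe sets tested. The medians of the common steps and the chlorophyll branch (-0.52 and -0.57) lie left of the band, as do those of the other tetrapyrrole genes (-0.49) and the phytyl tail supply (-0.46), and the breakdown genes lie on both sides of it.

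Markers of other organs and cell types moved too, where 36.5% of all probe sets tested were lower and 23.9% higher. Of the 12 root markers, 11 were tested, of which 7 fell, 1 rose and 3 did not pass, and the log2 of their summed linear levels was 12.05 to 12.25 in H2O2 and 12.42 to 12.49 in mock. PYK10 made up most of that sum and differed by -0.05 (limma adjusted p = 0.602). AGP30 was 8.20-fold lower, PRP3 4.23-fold, XTH14 3.38-fold and EXPA7 2.98-fold, each a larger decrease than that of any of the 30 tetrapyrrole genes. Of the 3 leaf markers, 2 fell, with a log2 sum of 12.95 to 13.14 in H2O2 and 13.31 to 13.38 in mock. All 3 vascular markers rose, with a log2 sum of 9.97 to 10.19 in H2O2 and 9.35 to 9.45 in mock. Of the 5 tested epidermal and guard cell markers, 3 fell and 1 rose, with a log2 sum over all 6 of 9.54 to 9.85 in H2O2 and 9.63 to 9.77 in mock. FAMA and MYB60 among those that fell, and the root marker MRN1, had H2O2 means below the filter limit and passed only through mock, so their direction was fixed in part by the filter. None of these lists had a marker at 0, and the lowest, the root marker THAS1 and the guard cell marker HT1, lay below the filter. The part of such shifts in the changes of tetrapyrrole genes was not tested.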

How the data were processed

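Affymetrix arrays were hybridised with biotin-labelled cRNA from 3 H2O2 and 3 mock pools. The authors deposited log2 values made with GCRMA, as the submitters' processing notes name it (background correction by probe sequence, normalization between arrays and summary per probe set), with the log2 scale read from the values (1.55 to 13.2). The sources used here do not give the GCRMA version, chip model or probe annotation. Such normalization removes overall differences in RNA content.

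Symbols came from the RefSeq gene table of assembly TAIR10.1 (21231 of 21430 loci matched). Members and lists were chosen with earlier results of these data known. Probe sets with a mean under the 30th percentile (3.79) were left out, which kept 15001 and all 30 members. The difference H2O2 minus mock was fitted by limma 3.58.1 under R 4.3.3 (lmFit, eBayes, two-sided, Benjamini-Hochberg over all probe sets tested, threshold 0.05). Paralog balance was tested by exact permutation with scipy 1.17.1. The scripts were tested on simulated data. No 2 arrays held identical values. The labels number replicates alike in both groups but do not say that they pair. Deviations from the group means correlated at 0.19 to 0.21 for each same-numbered pair, so the numbers were taken to pair the samples. The main fit and the permutation test did not use this pairing, and blocking on the numbers in limma was an alternative. The others were no filter, a filter at the 50th percentile, raising low values to the limit, quantile normalization, reference gene centring, a trended robust prior, no variance moderation, and each array left out. Values on every array were given for the 10 members with the largest changes and the duplicated genes, with a few added after their values were seen (CHLH, GUN4). From each other list up to 5 changed genes were named. HY5, UPM1, SIRB, HY2, HO2, HO3, DXS, HDR, PPH, SGRL, NOL, NYC1, PAO, PP2AA3, RHIP1 and the markers were also chosen after their values were seen. Outside the members, only LIL3:1, TSPO, HO3, SGR1 and GNC were given with values on every array.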

Additional observations from a re-analysis of the deposited data

How the results depend on the processing

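Each gene was refitted under 14 alternatives (13 where the stricter filter removed it). Of the 30 members, 22 kept their direction and their side of the threshold under all of them. So did 24 of the 25 other genes named for the largest called differences of their lists. These 25 were picked for large changes, which favours stable calls. The remaining named genes, such as HY5, UPM1, DXS and the markers, were not checked in this way. The number of members called lower was 21 to 27 over all alternatives and 24 to 26 with 1 array left out, and the number called higher was 2 throughout. With the replicate number as a block, 27 members were called lower, and of all probe sets 5695 were lower and 3729 higher, against 5482 and 3584 without it. The block changed no member's call except that of PORA. Reference gene centring left 4329 lower and 4179 higher. The cause of these changes was not tested. Leaving out 1 array at a time, the HEMA1 difference ran from -0.0386 to 0.0644 and the PORA minus PORB shift from -0.106 to 0.0893, so neither has a settled direction. CLH1 did not pass without variance moderation (adjusted p = 0.0701).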
